A study of Homo sapiens with 12 samples.

Results

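The genes described here are 9 protein-coding genes widely used as markers of neurons and neuroendocrine cells, measured in HEK293 cells that produced a catalytic mutant (mut) or the wild type (WT) of the exoribonuclease DIS3L2. They were chosen by name, as NEFL, NEFM, INA, SYP, CHGA, TUBB3, MAP2, STMN2 and UCHL1, out of 60483 genes counted in total RNA. Of the 9, 8 had at least 1 read and 7 passed the filter on low counts that left 14409 genes for testing. HEK293 is an established line from human embryonic kidney. The total RNA libraries, depleted of ribosomal RNA, comprised 3 from cells producing mut DIS3L2 and 3 from cells producing WT DIS3L2. Both lines were made with the Flp-In T-REx system, and their shared vector design pairs a FLAG-tagged, recoded DIS3L2 with hairpins that silence the endogenous gene. All cells, WT included, had 3 days of doxycycline at 100 ng/ml. The sources do not say how many clones stand behind each line or whether replicates came from different cultures. The p-values therefore reflect variation among these 6 libraries, and that variation may be technical.

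Neurofilaments are the intermediate filaments of axons, and their subunits include the light and medium chains NEFL and NEFM and α-internexin (INA). Microtubules of neurons carry the β-tubulin TUBB3, the dendritic protein MAP2 and the tubulin-binding stathmin STMN2. Synaptophysin (SYP) is a membrane protein of synaptic vesicles, chromogranin A (CHGA) fills dense-core secretory granules, and UCHL1 is an abundant neuronal ubiquitin hydrolase. In most other tissues many neuronal genes are kept silent by the repressor REST, which binds RE1 elements. HEK293 cells are known to express several neuronal genes, neurofilament subunits among them.

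NEFL, INA and SYP were higher in mut than in WT cells, by 1.43-fold, 1.46-fold and 1.56-fold. UCHL1, TUBB3, MAP2 and CHGA did not pass the test, NEFM was too low to test, and STMN2 had no reads in any library. Cell identity was not tested here, and DCX, a defining neuronal gene outside the 9, was also at 0. Of the 7 tested markers 3 were higher and 0 lower (quasi-likelihood F test of edgeR, Benjamini-Hochberg adjusted p under 0.05). Over all tested genes 13.0% were higher and 14.2% lower in mut, 27.2% in either direction. At an unadjusted p under 0.05 edgeR had 4 markers higher and 0 lower, beside 18.5% and 19.9% of all tested genes. DESeq2 called 3 higher and 0 lower after adjustment, beside 8.65% and 9.01% of the 13959 genes to which it gave an adjusted p. Levels are given as CPM, the read count scaled to library size with TMM factors. Reads outside annotated genes made up 12.3% to 13.7% of the mut and 16.6% to 19.4% of the WT reads, without overlap between the groups, and the part of this difference in the markers' values was not tested.

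The start regions of INA and SYP, which rose, are shown beside those of CHGA and UCHL1, which were tested and not called. Each sequence is the 250 bases before the RefSeq start in GRCh38.p14, 5′ to 3′ on the gene's strand. For CHGA the table's start lies inside the RefSeq gene span, which begins further upstream, so that window overlaps the annotated gene. Capitals mark matches, on either strand, to 6 motifs that were searched for: the TATA box TATAAA, the GC box GGGCGG, the E-box CAGCTG, the core TGACG of the cAMP response element, and the left and right parts of RE1, TCAGCAC and GGACAGC. INA lies at chr10:103276888-103277137 (plus strand), SYP at chrX:49200194-49200443 (minus), CHGA at chr14:92922900-92923149 (plus) and UCHL1 at chr4:41256678-41256927 (plus).
INA: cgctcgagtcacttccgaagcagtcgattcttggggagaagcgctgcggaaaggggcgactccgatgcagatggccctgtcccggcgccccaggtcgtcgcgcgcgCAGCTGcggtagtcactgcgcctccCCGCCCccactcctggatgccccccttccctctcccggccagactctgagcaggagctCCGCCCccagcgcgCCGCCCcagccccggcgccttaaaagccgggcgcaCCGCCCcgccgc
SYP: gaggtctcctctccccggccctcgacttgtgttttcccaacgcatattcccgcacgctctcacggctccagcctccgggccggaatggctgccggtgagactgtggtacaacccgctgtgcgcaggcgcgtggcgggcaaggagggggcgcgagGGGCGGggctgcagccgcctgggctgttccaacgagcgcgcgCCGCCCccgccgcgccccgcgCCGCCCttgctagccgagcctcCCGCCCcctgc
CHGA: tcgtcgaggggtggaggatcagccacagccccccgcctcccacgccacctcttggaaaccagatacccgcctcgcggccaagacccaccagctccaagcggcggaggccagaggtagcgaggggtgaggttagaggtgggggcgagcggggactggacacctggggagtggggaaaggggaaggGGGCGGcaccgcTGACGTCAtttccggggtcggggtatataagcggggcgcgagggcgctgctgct
UCHL1: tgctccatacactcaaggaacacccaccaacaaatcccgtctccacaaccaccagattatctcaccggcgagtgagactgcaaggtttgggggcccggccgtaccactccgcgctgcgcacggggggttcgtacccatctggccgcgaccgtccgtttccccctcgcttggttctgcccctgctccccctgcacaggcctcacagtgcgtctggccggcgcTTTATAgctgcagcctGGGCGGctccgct

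INA and SYP each held 4 GC boxes in this window, the nearest ending 7 and 6 bases before the start. CHGA and UCHL1 held 1 each. The 2 windows of TUBB3, also tested and not called, held 0 and 3, and the 3 windows of MAP2 held 0. At least 1 GC box occurs in 42.6% of the 35116 promoter windows of this length in the RefSeq table. That table gave no window for NEFL, the other marker that rose. CHGA also held the TGACG core on both strands, 54 to 47 bases before the start, as matches that overlap by 2 bases. That core occurs in 21.2% of all windows. UCHL1 held TATAAA on the opposite strand, 29 to 24 bases before the start (10.7% of all windows), and INA held 1 E-box (14.0%). Neither part of RE1 was found in any of the 4 windows, nor in the 2 TUBB3 and 3 MAP2 windows of the table, and the parts occur in 3.55% (left) and 4.76% (right) of all windows. GC content was 72.8% for INA, 74% for SYP, 68.8% for CHGA and 64.4% for UCHL1, against a median of 58% over all windows. It was 65.6% and 78% in the TUBB3 windows and 37.6% to 51.2% in those of MAP2. A match describes letters and is no evidence of binding.

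**Figure D1:**
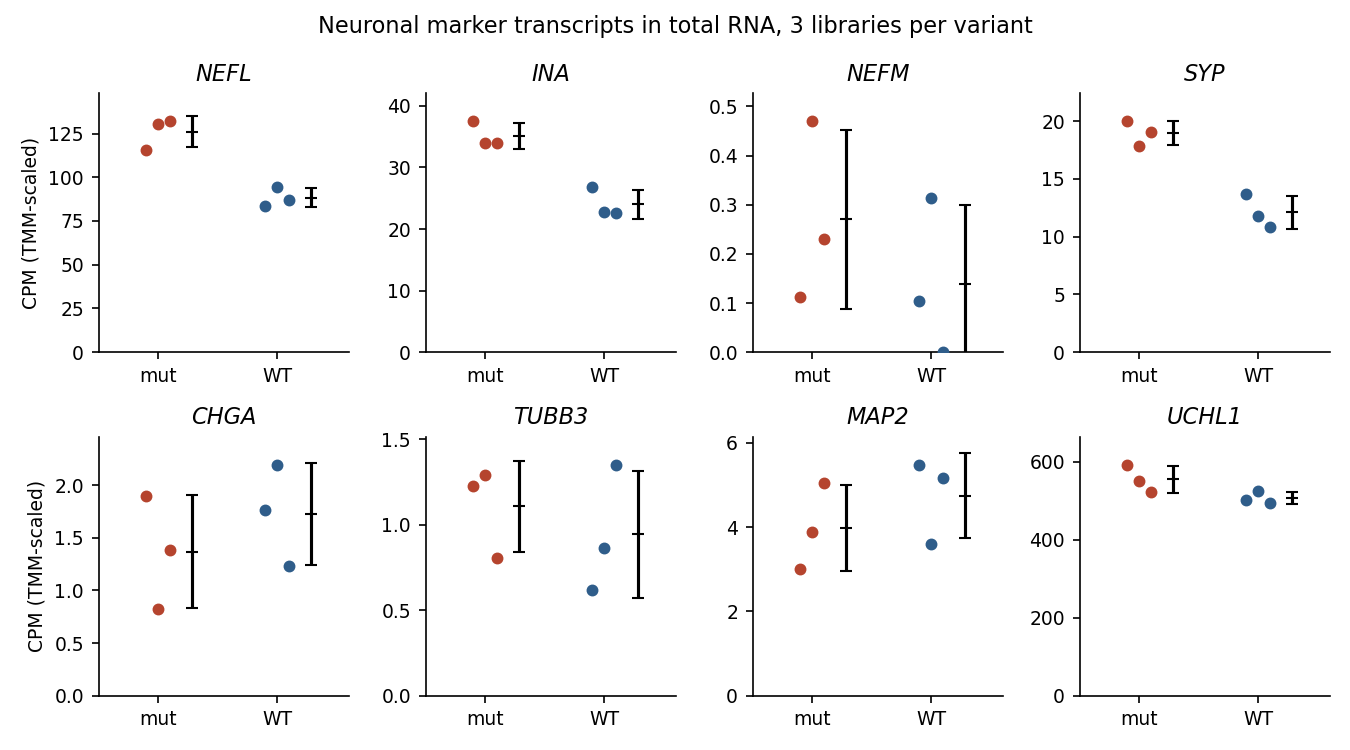
Transcript level of each detected neuronal marker in CPM (vertical axis, from 0, on its own scale in each panel) in the 3 mut and 3 WT total RNA libraries. Points are libraries, and the bars give the mean and SD (n = 3), stopped at 0 for NEFM in WT. The mut and WT points are separate for NEFL, INA and SYP and overlap for the other markers.

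Among the neurofilament genes, NEFL (ENSG00000277586.1, chromosome 8, 24950955 to 24956612, hg38) had 116, 131 and 132 CPM in the mut libraries, against 83.7, 94.4 and 86.9 CPM in the WT libraries. Every mut library lay above every WT library. The mean was 126 ± 9.09 CPM in mut and 88.3 ± 5.49 CPM in WT (SD, n = 3 each), which is a log2 fold change of 0.51 with an SE of 0.07 (edgeR adjusted p = 4.7e-06). These values rest on 3298 reads in mut and 2721 in WT.

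INA (ENSG00000148798.8, chromosome 10, 103277138 to 103290346) encodes α-internexin, which co-assembles with the neurofilament chains. It had 37.5, 33.9 and 33.9 CPM in mut, against 26.8, 22.7 and 22.6 CPM in WT, again without overlap. The log2 fold change was 0.55 (SE 0.09, edgeR adjusted p = 5.9e-05). Library 1 was the highest of its group for INA in both variants, while for NEFL it was the lowest of its group in both.

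NEFM (ENSG00000104722.12, chromosome 8, 24913761 to 24919093) encodes the medium chain and is separated from NEFL by 31.9 kb. It had 1, 4 and 2 reads in mut and 1, 4 and 0 in WT. The ratio of the summed counts, 7 against 5 and scaled for depth, was 1.64 (95% exact interval 0.45 to 6.54, counting error only), so no difference was detectable at this depth. The span of NEFM, 5.33 kb, is close to the 5.66 kb of NEFL. Per kb of gene span NEFL had 22.3 ± 1.61 CPM in mut cells, against 15.6 ± 0.97 CPM in WT, and NEFM had 0.051 ± 0.034 CPM in mut cells, against 0.026 ± 0.030 CPM in WT.

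Among the vesicle and granule genes, SYP (ENSG00000102003.9, chromosome X, 49187815 to 49200193) had 20.0, 17.9 and 19.1 CPM in mut, against 13.7, 11.8 and 10.8 CPM in WT. The groups did not overlap, and the log2 fold change of 0.65, whose SE was 0.11 (edgeR adjusted p = 0.00010), was the largest of the 7 tested markers. SYP-AS1, a noncoding gene annotated on the opposite strand and overlapping SYP in RefSeq, had 0 or 1 read in each library. The strand setting of the counting is not given in the sources used here.

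CHGA (ENSG00000100604.11, chromosome 14, 92922664 to 92935285) had 17, 7 and 12 reads in mut and 17, 28 and 10 in WT. On the CPM scale it averaged 1.37 ± 0.54 in mut and 1.73 ± 0.48 in WT, with overlapping groups. Its log2 fold change was −0.38, with an approximate 95% interval (1.96 SE on each side) from −1.03 to 0.27 (edgeR adjusted p = 0.42). That interval includes changes in both directions as well as no change.

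Among the microtubule genes, MAP2 (ENSG00000078018.18, chromosome 2, 209424047 to 209734112) had 3.01, 3.88 and 5.06 CPM in mut, against 5.48, 3.60 and 5.16 CPM in WT. These libraries overlapped, and the log2 fold change of −0.22 had an interval from −0.64 to 0.20 (edgeR adjusted p = 0.47). MAP2 has the longest span of the 9 genes, 310066 bases. After correction of each library for its trend with gene span, the log2 fold change of MAP2 was −0.11.

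TUBB3 (ENSG00000258947.5, chromosome 16, 89921925 to 89936097) had 11, 11 and 7 reads in mut and 6, 11 and 11 in WT. Its log2 fold change was 0.27, with an interval from −0.49 to 1.03 (edgeR adjusted p = 0.65). Reads that overlap several annotated genes made up 8.6% to 9.9% of the mut and 6.9% to 8.3% of the WT reads and are not in the gene counts. Whether TUBB3 lost reads in this way was not tested.

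STMN2 (ENSG00000104435.12, chromosome 8, 79611117 to 79666158) had 0 reads in all 6 libraries. A count of 0 allows up to 3 reads per library, which corresponds to 0.33 to 0.35 CPM in mut and 0.23 to 0.37 CPM in WT.

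UCHL1 (ENSG00000154277.11, chromosome 4, 41256928 to 41268455) was the most deeply counted of the 9, with 14536 reads in mut and 15563 in WT. It had 593, 550 and 522 CPM in mut, against 502, 524 and 493 CPM in WT. The lowest mut library lay just below the highest WT library. The log2 fold change was 0.13, with an interval from 0.02 to 0.24, and did not pass after adjustment (edgeR adjusted p = 0.081). Its position was close to the threshold: adjusted p was 0.039 with upper-quartile scaling and 0.034 without mut library 3, and between 0.064 and 0.24 under the other 10 alternatives.

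**Figure D2:**
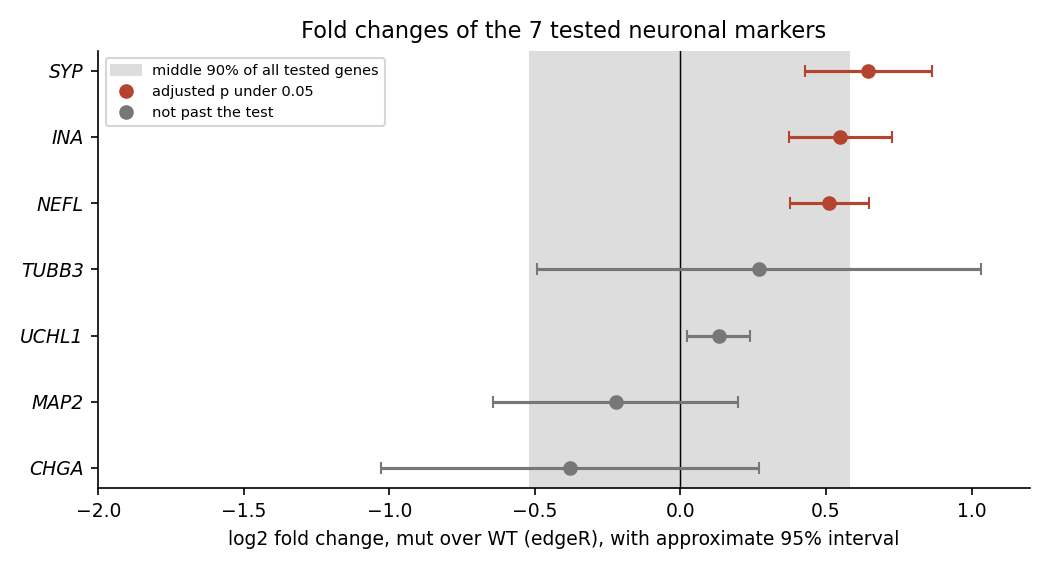
Log2 fold change of mut over WT (horizontal axis) for the 7 tested neuronal markers, ordered by size, with bars for the approximate 95% interval of 1.96 SE on each side. Red points passed the test at adjusted p under 0.05, and the grey band spans the middle of the distribution of all tested genes, from −0.52 to 0.58. SYP lies above that band, and INA and NEFL lie inside it near its upper edge.

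Set against all 14409 tested genes, the log2 fold change of SYP was higher than that of 96.0% of them, INA higher than 94.3% and NEFL higher than 93.6%. TUBB3 stood at 83.6%, UCHL1 at 69.9%, MAP2 at 20.6% and CHGA at 9.6%. The median over the 7 tested markers was 0.27, beside −0.01 over all tested genes. With all 6 libraries that median is the value of TUBB3, a gene with few reads. It was 0.12 without WT library 1, 0.15 without mut library 2, 0.47 without mut library 3 and 0.52 without WT library 3. In 3 of the 7 markers all mut libraries lay above all WT libraries, and in 0 all lay below. Over all tested genes these shares were 19.4% above and 21.2% below. In bulk RNA a larger share of cells with a transcript and more transcript per cell cannot be told apart.

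The position of the 3 called markers in each library was compared with other genes as a description. The protein-coding genes whose centred log2 CPM lay closest to NEFL over the 6 libraries were ATP2B4, a calcium pump of the plasma membrane, SOCS2, an inhibitor of cytokine signalling, and TCFL5, a transcription factor, with root mean square differences of 0.042, 0.042 and 0.046. For INA they were KANK3 (0.021), the signal peptidase subunit SEC11C (0.044) and C2orf15 (0.045). For SYP they were the small GTPase GEM (0.057), the actin-capping CAPG (0.060) and C1orf54 (0.064), all below 4 CPM in both groups. None of these 9 genes belongs to a neuronal list used here. The 5 neuronal lists held 83 tested genes, beside 12096 tested protein-coding genes in all, so that absence carries little weight.

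**Figure D3:**
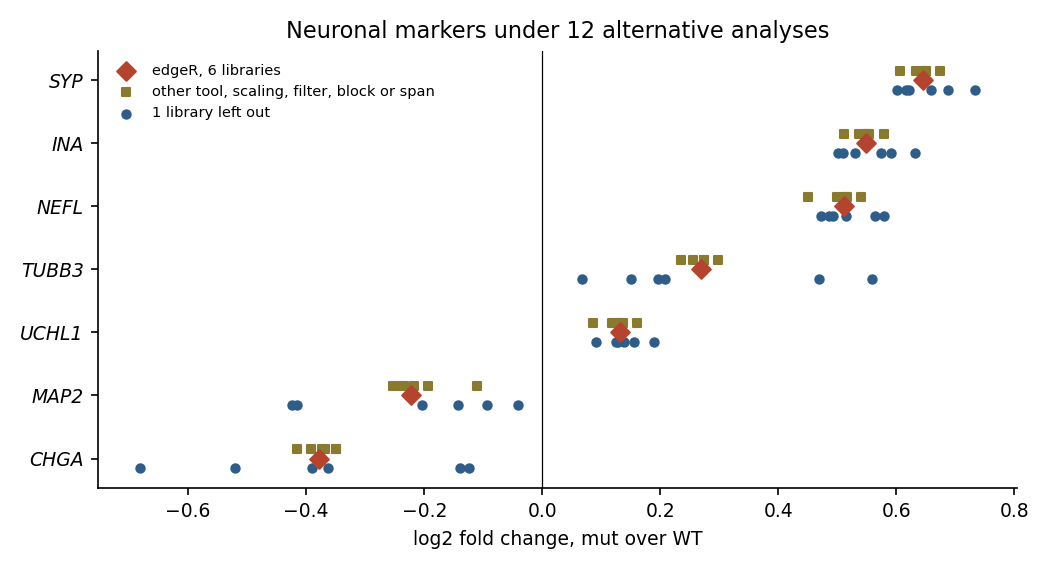
Log2 fold change of mut over WT (horizontal axis) for each tested marker under the main analysis (diamond), under 6 changes of tool, scaling, filter, block or span (squares) and with 1 library left out (circles). SYP, INA and NEFL stay between 0.45 and 0.73, while the values of TUBB3, MAP2 and CHGA, which have few reads, spread widely.

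NEFL, INA and SYP passed the test under all 12 alternatives. SYP ranged from 0.60 to 0.73 (highest adjusted p = 0.0010), INA from 0.50 to 0.63 (highest adjusted p = 0.00064) and NEFL from 0.45 to 0.58 (highest adjusted p = 0.00011) in edgeR or DESeq2.

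Neighbouring genes on the chromosome were described in the same way. Of all 12096 tested protein-coding genes 1591 were higher and 1812 lower in mut, shares close to the 13.0% and 14.2% over all tested genes. Whether the counts of neighbours differ from these shares was not tested. Among the 20 tested protein-coding genes nearest to NEFL, 10 on each side, 3 were higher and 4 lower in mut, with a median of −0.06. A single neighbour, the decoy death receptor TNFRSF10D at 0.52, exceeded NEFL itself. Around INA 4 were higher and 2 lower (median 0.06), and 2 of those higher, C10orf95 at 1.65 and NEURL1 at 0.76, exceeded INA. Around SYP 0 of 20 were higher and 1 was lower (median −0.02, highest 0.32), and no neighbour reached the 0.65 of SYP. MAP2 lay among 6 lower and 0 higher neighbours (median −0.11), and STMN2 among 8 lower and 0 higher (median −0.15). TUBB3, near a chromosome end, had 12 such neighbours, 6 of them higher and 0 lower (median log2 fold change 0.23) beside its own 0.27. UCHL1 had 1 higher and 4 lower (median −0.07), and CHGA 1 higher and 2 lower (median −0.04).

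**Figure D4:**
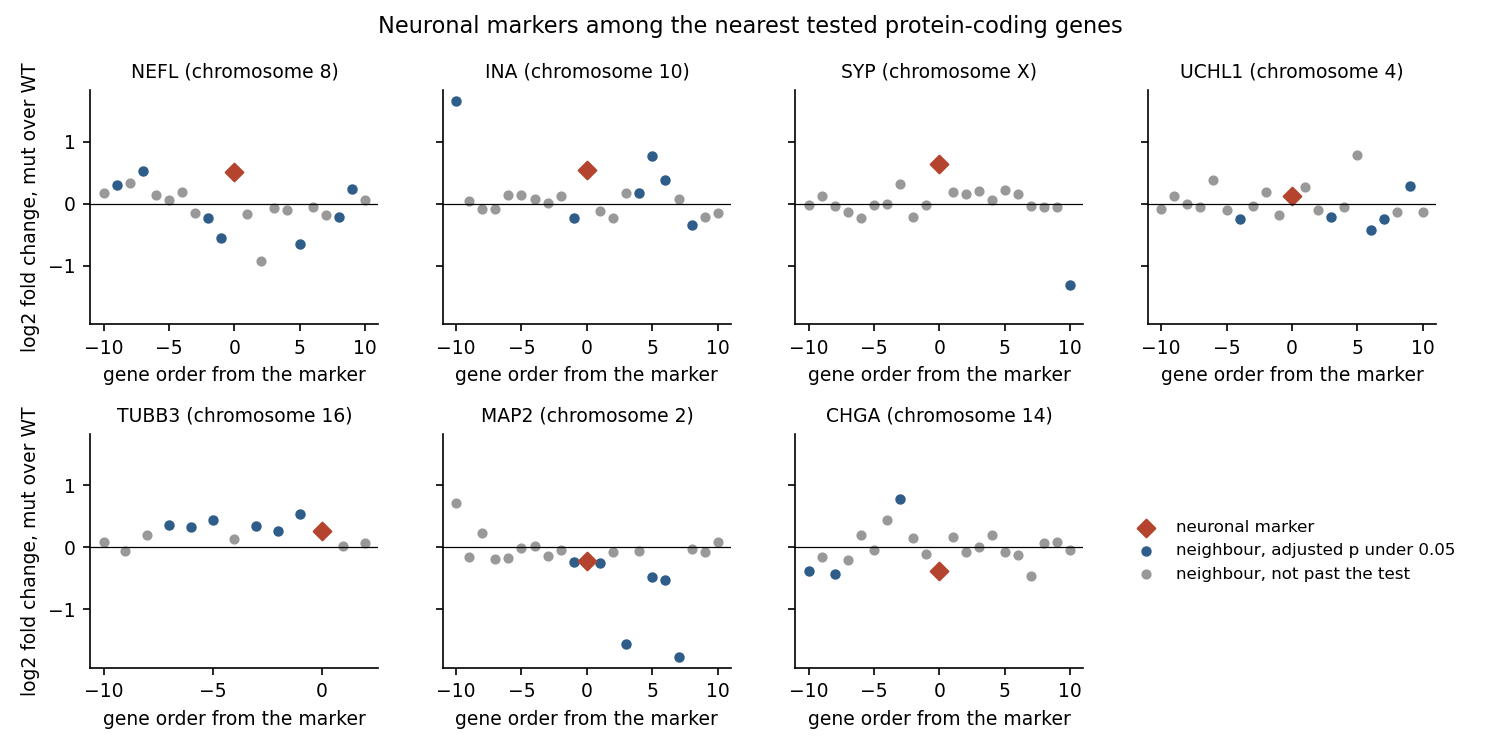
Log2 fold change of mut over WT (vertical axis) for each tested neuronal marker (red diamond) and the nearest tested protein-coding genes, in their order along the chromosome (horizontal axis, gene number from the marker). Blue neighbours passed the test and grey ones did not. SYP stands above all of its neighbours, whereas TUBB3 and MAP2 lie within theirs.

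Other genes of the same protein families were described from lists that exclude the 9 markers. Of 12 tested intermediate filament genes 7 were higher and 0 lower (median log2 fold change 0.21). Over all tested genes 13.0% were higher and 14.2% lower. The keratins KRT8, KRT18 and KRT19, all among those higher, are also in the epithelial list below. SYNM, which encodes the large filament protein synemin, had 7.26, 9.63 and 7.58 CPM in mut, against 3.00, 3.92 and 3.93 CPM in WT libraries (log2 fold change 1.16, SE 0.18, edgeR adjusted p = 2.3e-05). NES, the neural progenitor filament nestin, rose by 0.72 (adjusted p = 0.025), the epithelial keratin KRT19 by 0.56 and the mesenchymal filament VIM by 0.23. NES was not called by DESeq2 (adjusted p = 0.16) or without mut library 1 or 3 or WT library 1 or 3. DESeq2 called 5 filament genes higher. The count was 4 with the replicate number as a block, without the low count filter, and without mut library 1, mut library 3 or WT library 3, and 3 without WT library 1. PRPH, the peripheral neurofilament partner peripherin, had 2.46, 1.41 and 2.07 CPM in mut, against 1.55, 1.33 and 1.11 CPM in WT (adjusted p = 0.18).

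Of 13 tested tubulin genes 2 were higher, TUBB6 (137 ± 9.59 CPM in mut and 94.2 ± 4.54 CPM in WT) and TUBB2B, and 2 were lower, TUBE1 and the brain-enriched TUBB4A (log2 fold change −0.74). The TUBB4A call was lost in DESeq2 and without WT library 3, and the TUBE1 call without WT library 3. Of 23 tested microtubule-binding and growth cone genes 6 were higher and 2 lower. MAP1A, a dendritic relative of MAP2 in function, averaged 57.0 ± 4.47 CPM in mut cells, against 38.9 ± 3.07 CPM in WT cells (log2 fold change 0.56, edgeR adjusted p = 1.2e-05). The collapsin response protein CRMP1 rose by 0.64, the end-binding protein MAPRE2 by 0.38 and MAP1B by 0.32. MAP7D2, a kinesin-binding protein on chromosome X, had 7.48, 7.40 and 7.24 CPM in mut, against 28.2, 27.5 and 26.7 CPM in WT, a log2 fold change of −1.90, the lowest in any list shown here (edgeR adjusted p = 9.5e-13). MAP7D3 was lower by edgeR (−0.21) and past the test in 5 of 12 alternatives, not without mut library 1 or 3 or WT library 1 or 3. DCX, the defining marker of migrating young neurons, had no reads.

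Of 22 tested synaptic vesicle and release genes 4 were higher and 3 lower (median log2 fold change −0.03). SV2A, a vesicle glycoprotein, averaged 49.6 ± 0.93 CPM in mut cells, against 35.7 ± 3.46 CPM in WT cells (log2 fold change 0.46, edgeR adjusted p = 0.00011). SYNGR3, a synaptogyrin, from a vesicle membrane protein family related to SYP, rose by 0.99 and SYT11 by 0.28. The active zone scaffold PCLO had 16.5, 21.3 and 20.2 CPM in mut, against 29.5, 31.5 and 38.8 CPM in WT libraries (log2 fold change −0.77, edgeR adjusted p = 7.4e-06). SYN2 (−0.60) and NAPB (−0.29) were lower by edgeR and not called by DESeq2, and neither was RAB3B (0.29). The summed level of this list was 412 to 438 CPM in mut and 421 to 429 CPM in WT, so the groups overlapped.

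In the neuroendocrine and chromaffin list 2 of 13 tested genes were higher and 2 lower. ENO2, the neuronal enolase, averaged 27.8 ± 1.99 CPM in mut cells, against 18.9 ± 1.19 CPM in WT cells (log2 fold change 0.55, edgeR adjusted p = 9.4e-05). The granin SCG3 had 12, 12 and 13 reads in mut and 7, 7 and 2 in WT (log2 fold change 1.41). It was not called without WT library 3, and DESeq2 gave it no adjusted p. CADPS2 and PCSK1N were lower by 0.20 and 0.54 on the log2 scale in edgeR, calls that 9 and 6 of 12 alternatives did not make, neither being made without library 3 of mut or library 1 or 3 of WT. TH, SLC18A1 and PHOX2A, markers of catecholamine cells, had no reads. PNMT had 6, 8 and 12 reads in mut and 10, 4 and 8 in WT, and HAND2, GATA2 and GATA3 were tested and not called (edgeR adjusted p = 0.38, 0.34 and 0.30). CHGB, the companion granin of CHGA, was below the filter.

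Of 15 tested neuronal fate and RNA-binding factors 3 were higher and 3 lower. The homeodomain factor POU4F1 (6.37 ± 0.38 CPM in mut and 3.96 ± 0.30 CPM in WT), PROX1 and ISL2 were higher, of which DESeq2 called POU4F1 alone. The splicing factor NOVA1 (4.21 ± 0.36 CPM in mut and 8.33 ± 0.45 CPM in WT), POU3F2 and ELAVL2 were lower, and ELAVL2 was not called by DESeq2 (adjusted p = 0.080). NEUROG3, ST18 and RBFOX1 had no reads. Of 10 tested neuronal channels and receptors, KCNA1, whose groups overlapped, and CHRNA5 were higher, both lost in DESeq2, and the sodium channel SCN9A was lower (19.8 ± 2.36 CPM in mut and 26.7 ± 2.07 CPM in WT).

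Across the 5 lists of microtubule-binding, vesicle, neuroendocrine, fate and channel genes, 83 of 143 genes were tested, 17 of them (20.5%) higher and 11 (13.3%) lower, with a median of −0.01. DESeq2 called 10 higher and 5 lower of the same genes. The lower count was 7 without mut library 1, 6 without WT library 1 and 6 without WT library 3. Single libraries also decided calls of named genes in edgeR. RAB3B was lost without mut library 2 or WT library 1, and NAPB without mut library 1 or any WT library. ISL2 was lost without mut or WT library 3, and KCNA1 without mut library 3 or WT library 2. ELAVL2 was lost without mut library 1 or WT library 1 or 3, and CHRNA5 without mut library 1 or WT library 2 or 3.

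REST itself had 68.6, 74.9 and 72.4 CPM in mut, against 91.5, 80.5 and 86.9 CPM in WT. Every mut library lay below every WT library, and the log2 fold change was −0.26 (SE 0.07, edgeR adjusted p = 0.0066). The call was lost without WT library 1 (adjusted p = 0.063). Of its 20 listed cofactors, all tested, HDAC2 (−0.27), KDM5C (−0.22) and RCOR1 (−0.26) were lower, and CTDSPL (0.28), SIN3A (0.19) and EHMT2 (0.19) were among those higher. RCOR1, CTDSPL, SIN3A and EHMT2 were not called by DESeq2, nor without WT library 1 or WT library 3 in edgeR. The list as a whole had 1 gene higher without library 3 of mut or library 1 or 3 of WT and 2 without mut library 2 or WT library 2, and 2 lower without WT library 1. No binding or protein was measured here.

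In the ubiquitin list, which holds the relatives of UCHL1 and the ubiquitin genes, 5 of 11 were higher and 0 lower. UBB averaged 1154 ± 56.9 CPM in mut cells, against 981 ± 47.5 CPM in WT cells (log2 fold change 0.23), with RPS27A at 0.20 and the proteasome-bound hydrolase USP14 at 0.22. RPS27A was not called without WT library 1, and USP14 was not called without WT library 2 or WT library 3. With the span trend removed, or with a replicate block, 3 genes of the list were higher, and without WT library 1 the count was 2. UCHL3 and UCHL5 did not pass (edgeR adjusted p = 0.52 and 0.98).

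**Figure D5:**
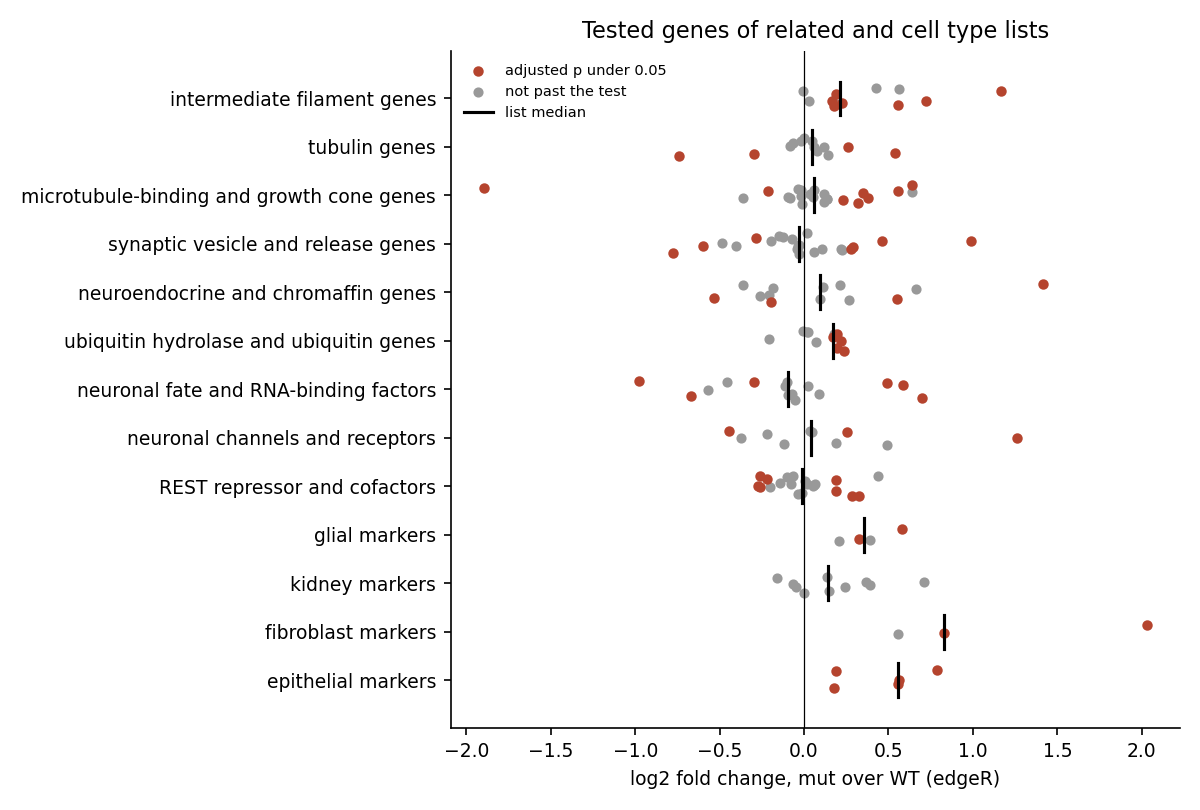
Log2 fold change of mut over WT (horizontal axis) for every tested gene in each related or cell type list (rows). Red points passed the test, grey points did not, and the vertical bars are list medians. Higher and lower genes occur together in the neuronal lists, while the 5 tested epithelial markers all lie above 0. KRT8, KRT18 and KRT19 are drawn in both the intermediate filament and the epithelial row.

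Markers of other cell types moved in the same libraries. All 5 tested of 7 epithelial markers were higher, beside 13.0% of all tested genes. KRT8, KRT18 and KRT19 among them are also in the intermediate filament list, so the counts of these lists are not separate observations. KRT19 stood at 116 ± 9.03 CPM in mut cells against 78.3 ± 7.68 CPM in WT cells. EPCAM stood at 56.5 ± 2.03 CPM in mut cells against 38.4 ± 2.34 CPM in WT cells. The summed epithelial level was 469 to 500.4 CPM in mut and 366 to 412 CPM in WT, with KRT7 at 0. DESeq2 called 3 of the 5, without KRT8 and CDH1. The count was also 3 with a replicate block, without the low count filter, and without mut library 1, mut library 2 or WT library 3, and it was 2 without WT library 1. Of 4 tested glial markers CNP (0.32) and ERBB3 (0.58) were higher, with summed levels of 135 to 140.0 CPM in mut and 105 to 118 CPM in WT and SOX10 at 0. The fibroblast collagens COL3A1 (1.38 ± 0.20 CPM in mut, 0.33 ± 0.03 CPM in WT) and COL1A1 (32, 24 and 17 reads in mut, 14, 25 and 9 in WT) were higher at low levels, with summed list levels of 4.48 to 6.92 CPM in mut and 2.69 to 3.60 CPM in WT and COL1A2, DCN, LUM and FAP at 0. DESeq2 did not call COL1A1 and gave COL3A1 no adjusted p, and COL1A1 was not called without mut library 1 or 2 or WT library 1 or 3. Of 10 tested kidney markers 0 passed in edgeR (1 higher and 0 lower at an unadjusted p under 0.05) and 0 in DESeq2, and their sums overlapped at 138 to 152 CPM in mut and 133 to 146 CPM in WT. Adrenal cortex and blood cell lists had no testable gene and summed to at most 0.69 CPM in any library. What part these markers have in the values of NEFL, INA and SYP was not tested.

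The DIS3L2 gene itself had 1092 ± 51.6 CPM in mut cells, against 784 ± 25.8 CPM in WT cells. It passed the same test as higher in mut (log2 fold change 0.48, SE 0.05, edgeR adjusted p = 1.9e-07). The DIS3L2 reads may mix transgene and endogenous transcript, so they do not test the silencing. What part this difference has in the markers' values was not tested. In the small RNA libraries, 3 per variant, 1 deposited feature lay within any of the 9 genes, a 5S pseudogene in MAP2, and it had 0 fragments in all 6.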

How the data were processed

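Per the submitters' processing notes, the tools were HTSeq 0.6.1, DESeq2 1.8.2, STAR 2.4.0, FastQC 0.11.3, CASAVA 1.8.2 and SAMtools 1.2-10, without stated roles, on build hg38. Neither annotation version nor strand setting is given in the sources used here. Raw read counts per Ensembl gene were deposited by the authors for total RNA, and for small RNA fragment counts per feature, of which those within the 9 markers were read. Counts in genes were 8467957 to 9009114 in mut and 8315986 to 12675042 in WT libraries. Rows naming no gene held 57.8% to 63.2% of all reads and were left out. Replicates differed beyond sampling noise (chi-square per degree of freedom 1.98 to 4.38).

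Symbols matched 56321 of 60483 identifiers, and positions come from RefSeq genes of GRCh38.p14. Mut was compared with WT by the two-sided quasi-likelihood F test of edgeR 4.0.16 in R 4.3.3 (TMM, filterByExpr with a minimum count of 10, Benjamini-Hochberg at 0.05). SE was derived from the fold change and its F statistic. CPM uses TMM-scaled library sizes of tested genes. Exact intervals and the floor of 3 counts cover counting error only. Alternatives were DESeq2 1.42.0, RLE and upper-quartile scaling, no count filter, a replicate block, removal of the gene span trend (lowess per library, passed as an offset) and leaving out each library. Likeness used log2(CPM + 0.5).

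The members and lists were chosen with earlier results of these data known. Named list genes are those with the smallest adjusted p past the test, at most 4 per direction. PRPH, CHGB, UCHL3, UCHL5 and the genes without reads were added after their values were seen, as were TNFRSF10D, C10orf95, NEURL1, KRT8, PNMT, HAND2, GATA2 and GATA3. Exon lengths were not used here, so levels of different genes were not compared except for NEFL and NEFM per kb of span. Some genes that the rule names are not reported here.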

Additional observations from a re-analysis of the deposited data

How the results depend on the processing

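The counts of called markers moved little: 3 higher under every alternative except upper-quartile scaling and leaving out mut library 3, which made 4 with UCHL1, and 0 lower throughout. Leaving out 1 library gave 3 to 4 markers higher, 1327 to 1832 genes higher and 1274 to 2109 lower over all tested genes, against 1867 and 2049 with all 6, and 13 to 16 higher and 6 to 10 lower in the 5 neuronal lists, against 17 and 11. DESeq2 called 1208 genes higher and 1258 lower in all, and 10 and 5 in the 5 neuronal lists. UCHL1 had log2 fold changes of 0.16 with upper-quartile scaling and 0.19 without mut library 3. No tested marker changed sign under any of the 12 alternatives, nor did any of the 53 named list genes, of which 27 stayed past the test under each alternative that gave an adjusted p and 26 did not. The cause of the lost calls was not tested. Scaling moved the median of all genes by at most 0.03. No pairing by replicate number was seen: deviations of same-numbered mut and WT libraries correlated at −0.09, −0.07 and 0.03 across genes. Such values do not decide whether same-numbered libraries were prepared together. With a replicate block 3 markers were higher and 0 lower, and 1675 genes were higher and 1845 lower in all. Low read counts limit NEFM, TUBB3, CHGA and MAP2, whose intervals include changes in both directions. Whether depth alone sets the low count of TUBB3 was not tested.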
